A study of Homo sapiens with 6 samples.

Results

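The transcription factors that make and keep neural crest cells and melanocytes were followed here in A375 cells, a human melanoma cell line with mutant BRAF. The 10 genes are SOX10, SOX9, FOXD3, TFAP2A, TFAP2B, MITF, PAX3, ZEB1, ZEB2 and SNAI2. They were chosen from knowledge of the lineage, with results of the same knockdown and control arrays already known, among them a large difference at TFAP2B. Their counts of called differences are therefore a description, and nothing is supported with them. All probe sets annotated to exactly 1 of the 10 symbols were taken, 34 of the 49293 in the table, and 0 probe sets with several symbols named a member. At 1 probe set per gene, they are 10 of 18132 genes.

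Per the labels, 3 arrays held RNA of A375 cells with no knockdown (control) and 3 held RNA of A375 cells with a short hairpin RNA against MAP4K5 expressed stably (knockdown). MAP4K5 encodes a germinal centre kinase. All 6 cultures had the same serum-containing medium and no treatment. The labels call the arrays of a group biological replicates and do not say how cultures were separated, so every p-value here reflects the spread over 3 arrays a group, which may be technical. A hairpin line can differ from its parent also through the vector, the hairpin's other targets or the selection of cells, and here such effects and the loss of MAP4K5 cannot be told apart. The sources used here do not say whether control cells carried a vector, and A375 is 1 line. In RNA from whole cultures, fewer cells of a kind and less RNA per cell cannot be told apart either.

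In the embryo, TFAP2A, TFAP2B, PAX3, FOXD3, SOX9 and SOX10 specify the neural crest, and SNAI2, ZEB1 and ZEB2 repress epithelial genes as crest cells leave the neural tube. SOX10 and PAX3 then activate MITF, the main regulator of pigment cell genes, while FOXD3 holds crest cells in a progenitor or glial state and can repress MITF. Melanomas keep much of this network, and tumours rich in MITF and SOX10 are known to differ in behaviour from those low in both. SOX9 and SOX10 are related HMG box proteins that bind similar DNA, and a switch between them has been described in melanoma.

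Values are RMA intensities on a linear scale, in which background was corrected, arrays were brought to the same distribution and the probes of a set were summarised. Array medians lay between 4.85 and 4.94, and the median gene stood at 8.68 as a geometric mean over the 6 arrays. MAP4K5 itself measured 77.7, 78.1 and 76.3 in control replicates 1, 2 and 3 and 19.7, 18.8 and 20.3 in the knockdown arrays at its brightest probe set, a difference of -1.98 ± 0.08 (SE) on the log2 scale. The exact two-sided permutation test gave p = 0.1 at each of its 3 probe sets, which is the lowest value possible for groups of 3. Control replicate 2 stood apart: its correlation over all genes was 0.992 with each of the other controls and 0.993 to 0.994 with the knockdown arrays, while controls 1 and 3 correlated at 0.997. SOX10, MITF and S100B, markers of the melanocytic lineage, lay above the median gene, whereas PMEL, MLANA, TYR and TYRP1 had mean intensities of 2.93, 2.82, 3.57 and 2.52, below it. The 8 measured of 9 melanocytic markers summed to 169.3 to 188.4 in control and 178.8 to 189.0 in knockdown arrays. This sum hides opposite differences: 1 marker was called higher, MITF (0.99 ± 0.16 SE on the log2 scale). The 2 called lower were S100B (-1.31 ± 0.15) and SOX10 (-0.54 ± 0.11), and 5 were not called. MITF and SOX10 are also members. In markers of other cell types, the summed level was 24.86 to 25.02 in control and 22.0 to 23.5 in knockdown arrays for 6 fibroblast genes, 12.2 to 14.3 and 12.7 to 12.8 for 4 blood genes, and 16.5 to 17.8 and 17.1 to 21.3 for 4 endothelial genes, all 14 below the median gene. The 5 keratinocyte genes summed to 123.5 to 146.6 in control and 171.9 to 187.9 in knockdown arrays. Most of this sum was KRT10, with means of 118.0 in control and 159.0 in knockdown arrays. Of the 5, 2 were called higher, KRT10 (0.43 ± 0.10 SE on the log2 scale) and KRT14 (1.09 ± 0.16). KRT14 had means of 6.12 and 12.8 at 1 probe set, whose name ends in _x_at, which marks sets that can bind several transcripts. KRT5, KRT1 and DSG3 lay below the median gene. The part of all these markers in the results was not tested.

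Of the 34 probe sets of the 10 genes, 15 were called by limma at an adjusted p under 0.05 over all probe sets, 5 higher and 10 lower in knockdown cells, where 4.43% of all probe sets were called, 1.98% higher and 2.46% lower. The called probe sets belong to 6 genes. MITF and SOX9 were higher, and TFAP2B, FOXD3, ZEB1 and SOX10 were lower. PAX3, TFAP2A, ZEB2 and SNAI2 had no called probe set. In the fit with the brightest probe set of each gene, the same 6 of 10 genes were called, 2 higher and 4 lower, against 7.83% of all genes, 3.70% higher and 4.13% lower. The groups did not overlap at 18 of the 34 probe sets, as at 23.9% of all probe sets. Over the 10 genes the median log2 fold change was -0.17, against 0.01 over all genes. Since the members were chosen with this contrast known, nothing is read from these counts. Of the 19 member probe sets at or above the median gene 14 were called, and of the 15 below it 1 was. Brighter probe sets were called more often over the whole table too. In the fit that left out the lowest 50% of probe sets, 2528 of all 24647 were called, and 14 of the 21 member probe sets that remained. The count of called member probe sets was 17 without control replicate 2, 9 without control 1, control 3 or knockdown 2, and 8 without knockdown 1 or 3, and 8 of the 15 were called in all 6 fits that left out 1 array. Over all probe sets the count moved as well, from 2186 with all arrays to 6599 without control 2 and to 391 to 808 without any other array.

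Promoters of called genes are shown with short words known as recognition motifs of the members' families; binding was not measured. The promoter table used here, made from RefSeq on GRCh38.p14, had an entry for 7 of the 10 members; SOX9, SOX10 and SNAI2 were not matched in it. Each entry runs from 250 bases before to 50 after an annotated start, and the 4 called genes it held are printed 5′ to 3′ on the gene's strand. Capitals mark the AP-2 word GCCNNNGGC, the SOX words ACAAAG and ACAATG, the MITF E-boxes CACGTG and CATGTG, and the ZEB and SNAI2 E-boxes CAGGTG and CAGGTA, searched on both strands; no matches overlap. These are FOXD3 at chr1:63322317-63322616 (plus strand), TFAP2B at chr6:50818621-50818920 (plus strand), MITF at chr3:69739214-69739513 (plus strand) and ZEB1 at chr10:31318167-31318466 (plus strand).
FOXD3: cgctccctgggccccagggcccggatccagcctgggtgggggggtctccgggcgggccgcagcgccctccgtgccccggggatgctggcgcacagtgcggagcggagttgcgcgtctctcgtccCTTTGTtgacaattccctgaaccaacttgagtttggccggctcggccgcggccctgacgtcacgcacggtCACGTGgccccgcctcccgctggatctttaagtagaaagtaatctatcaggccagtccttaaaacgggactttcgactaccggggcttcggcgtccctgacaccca
TFAP2B: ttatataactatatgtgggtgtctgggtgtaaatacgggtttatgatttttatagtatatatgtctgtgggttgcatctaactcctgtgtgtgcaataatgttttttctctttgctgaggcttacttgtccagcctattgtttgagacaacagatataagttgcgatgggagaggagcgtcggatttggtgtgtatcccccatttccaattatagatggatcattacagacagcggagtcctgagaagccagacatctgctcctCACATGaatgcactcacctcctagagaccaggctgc
MITF: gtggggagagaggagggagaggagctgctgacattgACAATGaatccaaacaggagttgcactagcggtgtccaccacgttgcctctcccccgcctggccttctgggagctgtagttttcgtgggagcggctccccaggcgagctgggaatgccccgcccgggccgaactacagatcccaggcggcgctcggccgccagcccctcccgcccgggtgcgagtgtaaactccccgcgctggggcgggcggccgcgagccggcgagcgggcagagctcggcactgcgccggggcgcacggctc
ZEB1: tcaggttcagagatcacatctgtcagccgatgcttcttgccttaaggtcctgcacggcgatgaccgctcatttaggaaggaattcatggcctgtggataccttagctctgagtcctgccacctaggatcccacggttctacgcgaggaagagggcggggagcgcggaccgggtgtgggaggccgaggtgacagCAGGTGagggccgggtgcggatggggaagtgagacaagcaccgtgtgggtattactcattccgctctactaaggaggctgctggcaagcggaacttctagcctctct

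FOXD3 held 1 SOX word, starting 126 bases before the start, and 1 MITF E-box 56 bases before it. TFAP2B held 1 MITF E-box (CATGTG, read on the other strand) at base 15 after the start. MITF held 1 SOX word 214 bases before the start, and ZEB1 held 1 ZEB and SNAI2 E-box 57 bases before it. Of the members not called, ZEB2 held 1 SOX word 138 bases and 1 MITF E-box 180 bases before the start. PAX3 and TFAP2A held none of the words. Over all 27305 promoters of this length, 24.6% held a SOX word, 17.9% an MITF E-box, 28.0% a ZEB and SNAI2 E-box and 23.0% the AP-2 word, which none of the 7 members held. The TFAP2B window had 43.0% G and C, less than the 58.3% of the median promoter, and those of FOXD3 and MITF had 66.3% and 70.3%. Such short words occur in many promoters, so a match is a description of the letters, and MITF has further start sites outside this window.

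**Figure D1:**
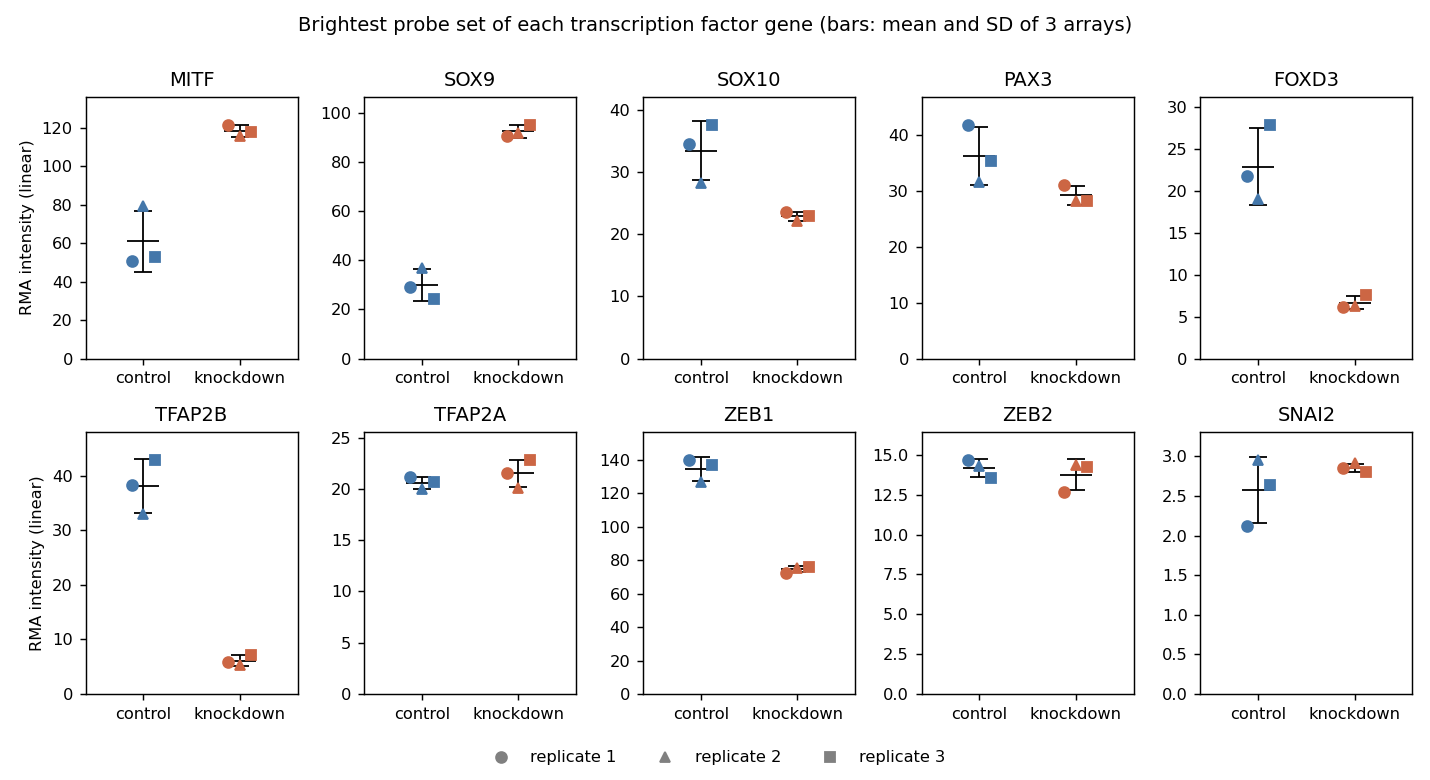
RMA intensity (linear scale, from 0) of the brightest probe set of each of the 10 genes, with 1 point per array and black bars for the mean and SD of 3 arrays. The groups lie apart without overlap for MITF, SOX9, SOX10, PAX3, FOXD3, TFAP2B and ZEB1, and they overlap for TFAP2A, ZEB2 and SNAI2.

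MITF, which switches on pigment, survival and cell cycle genes of melanocytes, was higher in knockdown cells. Its brightest probe set (11720263_a_at) measured 50.6, 79.4 and 52.8 in control replicates 1, 2 and 3 and 121.7, 115.7 and 117.8 in knockdown replicates 1, 2 and 3. The knockdown arrays were alike, and control 2 lay between them and the other controls. Means were 60.9 ± 16.04 and 118.4 ± 3.06 (SD, n = 3 each), a 1.98-fold rise with a log2 fold change of 0.99 ± 0.16 (SE), called by limma. The second probe set read 47.6, 66.3 and 44.3 in control and 89.7, 89.6 and 82.3 in knockdown arrays, a log2 fold change of 0.75 ± 0.15, also called. Against controls 1 and 3 the brightest probe set differed by 1.20 on the log2 scale, and against control 2 alone by 0.58. In the fits without 1 array both probe sets kept their calls only without control 2, with 0.87 to 1.20 for the brightest; that call was lost without controls 1 or 3 or any knockdown array. In the fit with 1 probe set per gene the MITF call was kept without control 1 or 3 and lost without any knockdown array.

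SOX9, a crest and cartilage HMG box factor, was higher at all 3 probe sets. The brightest (11758216_s_at) measured 29.0, 36.8 and 24.2 in control replicates 1, 2 and 3 and 90.6, 91.9 and 95.4 in the knockdown arrays. No control array came near the knockdown arrays, although control 2 was again the highest control. The means were 30.0 ± 6.38 and 92.6 ± 2.47 (SD, n = 3 each), a 3.13-fold rise (log2 1.65 ± 0.14 SE). The other probe sets gave 1.34 ± 0.20 and, at a dim 4.44 in mean intensity, 0.97 ± 0.15. The brightest probe set ends in _s_at, which marks sets that can bind several transcripts, and the middle one does not. The brightest was called in all 6 fits without 1 array (1.503 to 1.81), the middle one in 4, lost without knockdown 1 or 3 (1.23 to 1.54), and the dim one only without control 2 (0.87 to 1.14).

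SOX10, the close relative of SOX9 that melanocytes and glia depend on, went the other way at its brightest probe set (11742810_at). This read 34.5, 28.3 and 37.7 in control and 23.7, 22.1 and 22.9 in knockdown arrays. The groups did not overlap, and control 2 was the lowest control. From 33.5 ± 4.78 to 22.9 ± 0.78 (SD, n = 3 each), the level fell 1.45-fold (log2 -0.54 ± 0.12 SE), which left 68.8% of control. The second probe set read 8.64, 10.4 and 8.32 in control and 8.83, 8.21 and 9.27 in knockdown arrays, with -0.05 ± 0.11 on the log2 scale, and was not called. Both probe sets lay above the median gene, the second barely, at a geometric mean of 8.92. The SOX10 call held in 1 of the 6 fits without 1 array, that without control 2 (-0.66), and was lost without any other array (-0.56 to -0.45); against control 2 alone the difference was -0.31. For the mean of both probe sets it was -0.30, called in the fit with 1 value per gene. Of the called member probe sets it had the smallest absolute log2 fold change.

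PAX3, a paired box factor that acts with SOX10 on MITF, was not called. Its brightest probe set (11726239_a_at) measured 41.8, 31.6 and 35.4 in control and 31.1, 28.2 and 28.2 in knockdown arrays. The highest knockdown array lay just under the lowest control, control 2. limma gave a log2 fold change of -0.31 ± 0.12 (SE) and a 95% interval of -0.57 to -0.04 before adjustment over all probe sets. Without control 2 it was -0.40 and called. The other 5 PAX3 probe sets lay below the median gene, with log2 fold changes of -0.14 to 0.16 and none called.

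FOXD3, a forkhead factor of crest progenitors, was read by 1 probe set (11734367_at). It measured 21.8, 19.0 and 27.9 in control and 6.14, 6.28 and 7.60 in knockdown arrays. The lowest control array lay far above the highest knockdown array. Means were 22.9 ± 4.55 and 6.67 ± 0.81 (SD, n = 3 each), a 3.40-fold fall (log2 -1.77 ± 0.15 SE) that left 29.4% of control and was called in all 6 fits without 1 array (-1.89 to -1.62). The knockdown arrays lay below the median gene, and with 16 added to each intensity the log2 fold change was -0.77, still called.

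TFAP2B, an AP-2 factor of the crest, the sympathetic nerves and the kidney, had the largest difference of the 10 genes. The brightest probe set (11733305_a_at) measured 38.3, 33.1 and 42.9 in control and 5.80, 5.26 and 7.21 in knockdown arrays. All knockdown arrays lay below the median gene and all control arrays above it. The mean went from 38.1 ± 4.92 to 6.09 ± 1.01 (SD, n = 3 each), with a log2 fold change of -2.65 ± 0.14 (SE) that left 15.9% of control. The second probe set read 36.3, 14.5 and 35.6 in control and 3.61, 5.10 and 3.99 in knockdown arrays (-2.66 ± 0.32). There control 2 was well below the other controls, by 1.31 on the log2 scale, yet still above every knockdown array. The third gave -1.59 ± 0.21. All 3 were called in all 6 fits without 1 array, with the brightest at -2.78 to -2.55. With 16 added to each intensity the brightest stood at -1.29, still called.

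TFAP2A, the AP-2 paralogue that works beside TFAP2B in the early crest, was not called at any of 7 probe sets. Its brightest probe set (11743642_s_at) measured 21.2, 20.0 and 20.7 in control and 21.6, 20.1 and 22.8 in knockdown arrays. The groups overlapped, and limma gave 0.06 ± 0.09 (SE) on the log2 scale and a 95% interval of -0.14 to 0.26, which leaves room for small differences in either direction. The other 6 probe sets lay below the median gene, at -0.24 to 0.04, and none was called. The sign at TFAP2A depends on the probe set: it was -0.24 once sets whose names end in _x_at or _s_at were dropped and -0.067 for the mean of all 7.

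**Figure D2:**
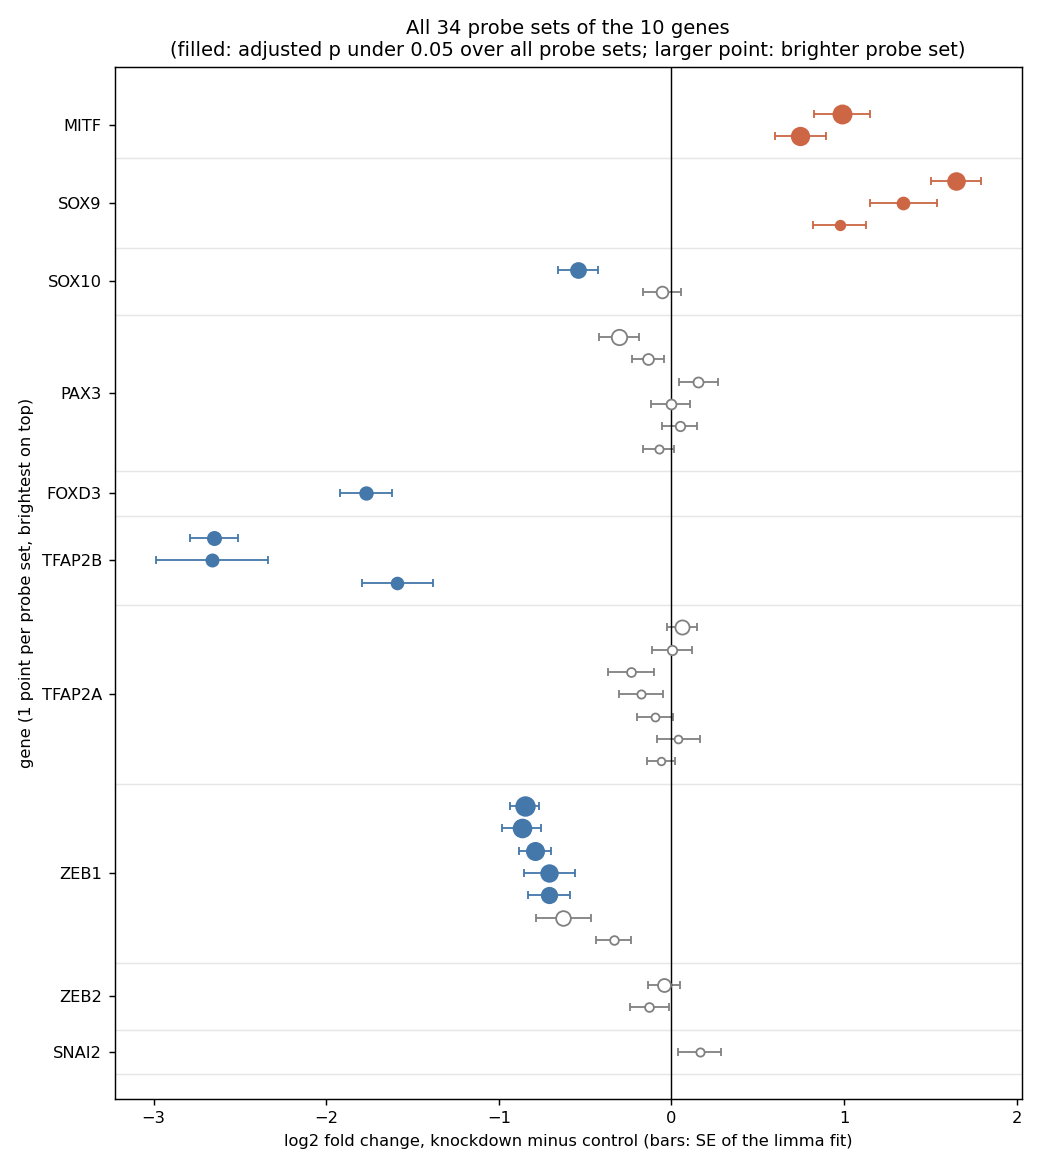
Log2 fold change (knockdown minus control, x axis) with the SE of the limma fit for each of the 34 probe sets, grouped by gene, the brightest on top; filled points had an adjusted p under 0.05 over all 49293 probe sets, and larger points are brighter. All 7 ZEB1 points and all 3 TFAP2B points lie left of 0, all MITF and SOX9 points right of it, and the points of PAX3, TFAP2A, ZEB2 and SNAI2 are open.

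ZEB1, a zinc finger repressor of epithelial genes that marks invasive melanoma cells, was lower in knockdown cells. The brightest of its 7 probe sets (11721547_s_at) measured 140.0, 126.9 and 137.1 in control and 72.5, 75.6 and 75.7 in knockdown arrays. Both groups were tight, and control 2 was only 0.13 below the other controls on the log2 scale. The mean went from 134.7 ± 6.91 to 74.6 ± 1.84 (SD, n = 3 each), a 1.80-fold fall (log2 -0.85 ± 0.08 SE). The groups did not overlap at any of the 7 probe sets, and 5 were called, at -0.87 to -0.71. The remaining ones stood at -0.63 ± 0.16 and, at a mean intensity of 3.19, at -0.33 ± 0.10. Of these 5, 3 kept their calls in each of the 6 fits without 1 array, the brightest at -0.89 to -0.82, and the other 2 only without control 2. All 7 end in _x_at or _s_at, so no ZEB1 value is free of sets that can bind several transcripts, and the sets can share transcripts and are not replicates of each other.

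ZEB2, the related repressor linked to melanocyte differentiation, measured 14.7, 14.3 and 13.6 in control and 12.7, 14.4 and 14.3 in knockdown arrays at its brightest probe set (11756954_s_at). The groups overlapped, with a log2 fold change of -0.04 ± 0.09 (SE; 95% interval -0.25 to 0.16), and the sign turned without knockdown replicate 1 (0.016). Its second, dim probe set gave -0.13 ± 0.11. SNAI2, a zinc finger repressor of migrating crest, was read by 1 dim probe set (11744218_at) at 2.12, 2.95 and 2.64 in control and 2.85, 2.91 and 2.80 in knockdown arrays. These SNAI2 values lie near the bottom of the scale, whose lowest value is 1.55, and the log2 fold change was 0.16 ± 0.12 (95% interval -0.12 to 0.45). The groups overlapped.

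Control replicate 2 lay nearest to the knockdown mean among the controls at all 15 called probe sets of the 10 genes, as at 63.7% of all called probe sets. Relative to the mean of controls 1 and 3, it was higher by 0.62 for MITF and 0.48 for SOX9 and lower by 0.35 for SOX10, 0.38 for FOXD3, 0.29 for TFAP2B and 0.13 for ZEB1, on the log2 scale at the brightest probe set. Against control 2 alone, the knockdown arrays differed by 1.33 for SOX9, -1.52 for FOXD3, -2.45 for TFAP2B and -0.77 for ZEB1, by 0.58 for MITF and by -0.31 for SOX10. The sign was the same as against controls 1 and 3 in all 6 genes. What sets control 2 apart was not tested.

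**Figure D3:**
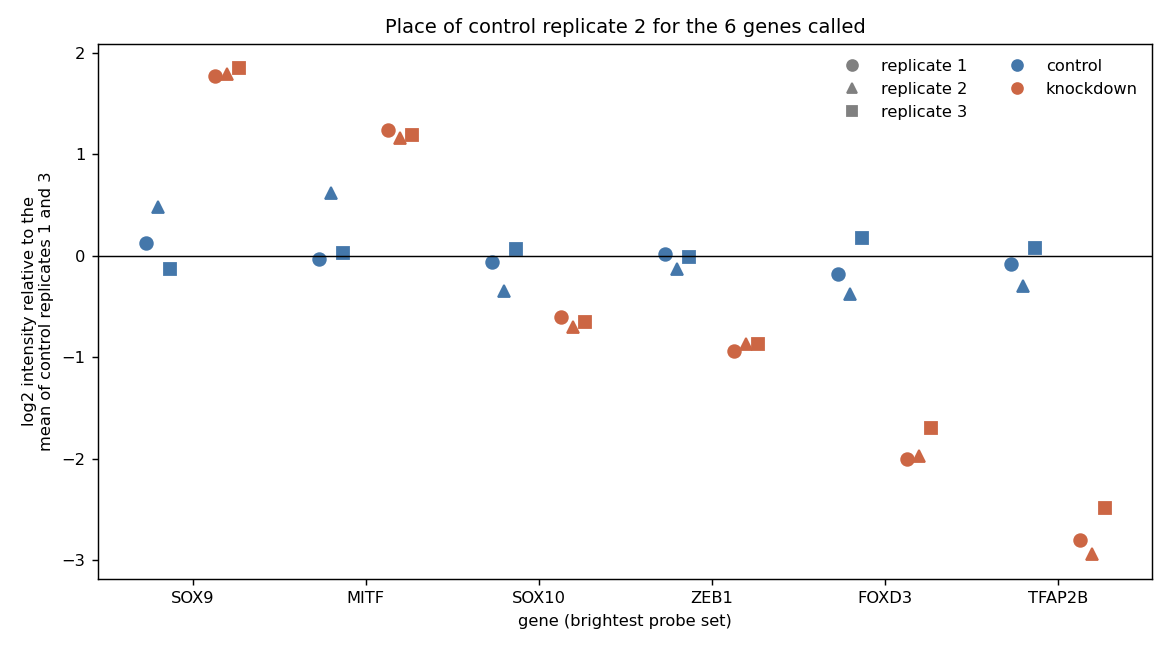
Log2 intensity of the brightest probe set on each array (y axis) relative to the mean of control replicates 1 and 3, for the 6 genes called; symbols give the replicate number and colours the group. The control 2 triangle lies on the knockdown side of both other controls in all 6 genes, 0.13 below their mean for ZEB1 and 0.62 above it for MITF.

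The factors' relatives, targets and upstream signals were counted in 5 lists of 108 genes, 101 of them measured, at the brightest probe set of each gene. Of these, 22 were called, 6 higher and 16 lower, beside the 7.83% of all genes. The lists, like the members, were chosen with earlier results of these data known, so nothing is read from these counts. Leaving out control 2 raised the count to 35 (14 higher, 21 lower). It was 12 or 16 when control 1 or 3 was left out, 10 for knockdown 1 and 13 for knockdown 2 or 3. With a pseudocount of 16, which shrinks the fold changes of dim genes, SOX5, ID4, CDK2, MIA, NRG1, WNT5A and CLDN1 were not called.

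Among 29 other crest transcription factors, 0 were higher and 6 lower, with a median log2 fold change of -0.06. SOX11, a crest and neuronal SOX factor, measured 32.3, 32.5 and 30.0 in control and 9.57, 10.7 and 14.1 in knockdown arrays (log2 -1.48 ± 0.14 SE). LEF1, the nuclear partner of Wnt signalling that acts with MITF, measured 56.0, 53.0 and 65.1 in control and 23.9, 24.3 and 24.9 in knockdown arrays (-1.25 ± 0.10). For both, control 2 lay far from the knockdown arrays. The other 4, named after their values were seen, were SOX5 (-0.94 ± 0.17), which can restrain SOX10, the mesenchymal factor TWIST1 (-0.67 ± 0.10), the AP-2 paralogue TFAP2C (-0.54 ± 0.08) and the dim ID4 (-1.13 ± 0.20), a dominant negative partner of bHLH factors. SOX11 and LEF1 kept their calls in all 6 fits without 1 array, but their size depended on the probe set. Without sets ending in _x_at or _s_at, SOX11 stood at -0.70 and LEF1 at -0.65, and LEF1 stood at -0.38 for the mean of its 9 probe sets, of which 3 were called; all 3 values were called. The others lost theirs in at least 1: SOX5 without control 1 or knockdown 1 or 2, TWIST1 without knockdown 1 or 2, TFAP2C without knockdown 1, and ID4 without control 1, control 3, knockdown 1 or knockdown 3. Without control 2, 4 of the 29 were higher and 7 lower.

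Among 19 measured pigment cell targets of MITF and SOX10, 2 were higher, 0 were lower and 17 were not called, with a median of 0.10. CDK2, a cell cycle kinase under MITF control, measured 49.1, 76.8 and 64.4 in control and 103.6, 99.5 and 89.4 in knockdown arrays (0.64 ± 0.16). GPNMB, a melanosomal glycoprotein, measured 72.9, 76.2 and 79.3 in control and 96.6, 96.9 and 91.3 in knockdown arrays (0.32 ± 0.08). The CDK2 and GPNMB calls held in 1 of the 6 fits without 1 array, that without control 2, and 0 of 5 GPNMB probe sets was called in the fit over all probe sets. For the mean of its sets GPNMB stood at 0.19, not called. Some genes of differentiated pigment cells stayed dim in both groups: TYR at 3.71 in control and 3.44 in knockdown arrays, PMEL at 2.69 and 3.16 and MLANA at 2.73 and 2.91. Others did not, and 7 of the 19 lay at or above the median gene. Beside GPNMB these included RAB38, at a mean intensity of 69.3, and RAB27A, at 11.3, neither of them called.

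Among 15 measured glial and crest targets of SOX10, 1 was higher, 5 were lower and 9 were not called, with a median of -0.07. CDH19, a cadherin of Schwann cell precursors, measured 96.0, 66.8 and 106.6 in control and 16.3, 17.5 and 16.9 in knockdown arrays (-2.38 ± 0.16). GAS7, a growth arrest gene of the nervous system, measured 53.8, 40.0 and 55.9 in control and 11.1, 14.8 and 13.1 in knockdown arrays (-1.93 ± 0.15). SHC4, a Shc adaptor of melanocytes and neurons, went the other way, with 4.89, 5.40 and 5.05 in control and 12.1, 12.2 and 10.8 in knockdown arrays (1.19 ± 0.09). Of the others, named after their values were seen, the neuregulin receptor ERBB3 stood at -1.34 ± 0.14, S100B at -1.31 ± 0.15 and MIA, a secreted melanoma protein, at -0.85 ± 0.17. MIA was called only without control 2 among the fits without 1 array, and the brightest ERBB3 probe set whose name does not end in _x_at or _s_at stood at 0.10, not called. CDH19, GAS7, SHC4, ERBB3 and S100B were called in all 6 fits, and 2 of 6 GAS7 probe sets and 2 of 4 SHC4 probe sets were called. For the mean of a gene's sets the values were smaller but called: -0.75 for GAS7, 0.51 for SHC4 and -0.73 for ERBB3.

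Among 18 measured receptors and ligands of the crest and melanocytes, 2 were higher and 3 lower, with a median of -0.03. KITLG, the ligand of the melanocyte receptor KIT, measured 9.62, 11.1 and 6.63 in control and 23.9, 27.3 and 24.4 in knockdown arrays (1.497 ± 0.18). NRG1, the neuregulin that binds ERBB3, measured 8.86, 15.1 and 8.31 in control and 25.4, 19.3 and 24.9 in knockdown arrays (1.15 ± 0.22). EDNRB, the endothelin receptor of melanoblasts, measured 30.7, 29.8 and 28.0 in control and 15.6, 14.2 and 17.6 in knockdown arrays (-0.91 ± 0.10). The Wnt receptor FZD7 stood at -0.70 ± 0.13, and WNT5A, named after its values were seen, at -0.67 ± 0.16. KITLG and EDNRB were called in all 6 fits without 1 array, and 1 of 4 KITLG probe sets was called. For the mean of a gene's sets KITLG stood at 0.42 and NRG1 at 0.44, both called. NRG1 was called only without control 2, FZD7 was lost without control 1 or knockdown 1 or 3, and WNT5A was lost without control 1 or any knockdown array.

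Among 20 epithelial and mesenchymal targets of the ZEB and SNAI factors, 1 was higher and 2 lower, with a median of -0.03. MMP2, a gelatinase of mesenchymal cells, measured 219.0, 190.3 and 209.3 in control and 104.1, 109.7 and 109.5 in knockdown arrays (-0.93 ± 0.09) and was called in all 6 fits without 1 array. The tight junction gene CLDN1 measured 42.2, 16.8 and 48.9 in control and 8.26, 12.0 and 13.2 in knockdown arrays (-1.57 ± 0.37), with control 2 close to the knockdown arrays, and kept its call only without control 2 among the fits without 1 array; for the mean of its probe sets it stood at -0.75, not called. PKP3, a desmosomal plaque protein, stood at 0.48 ± 0.10 at a dim 8.25, and lost its call without control 1 or any knockdown array and for the mean of its probe sets (0.20). The other 17, CDH1 and CDH2 among them, were not called.

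**Figure D4:**
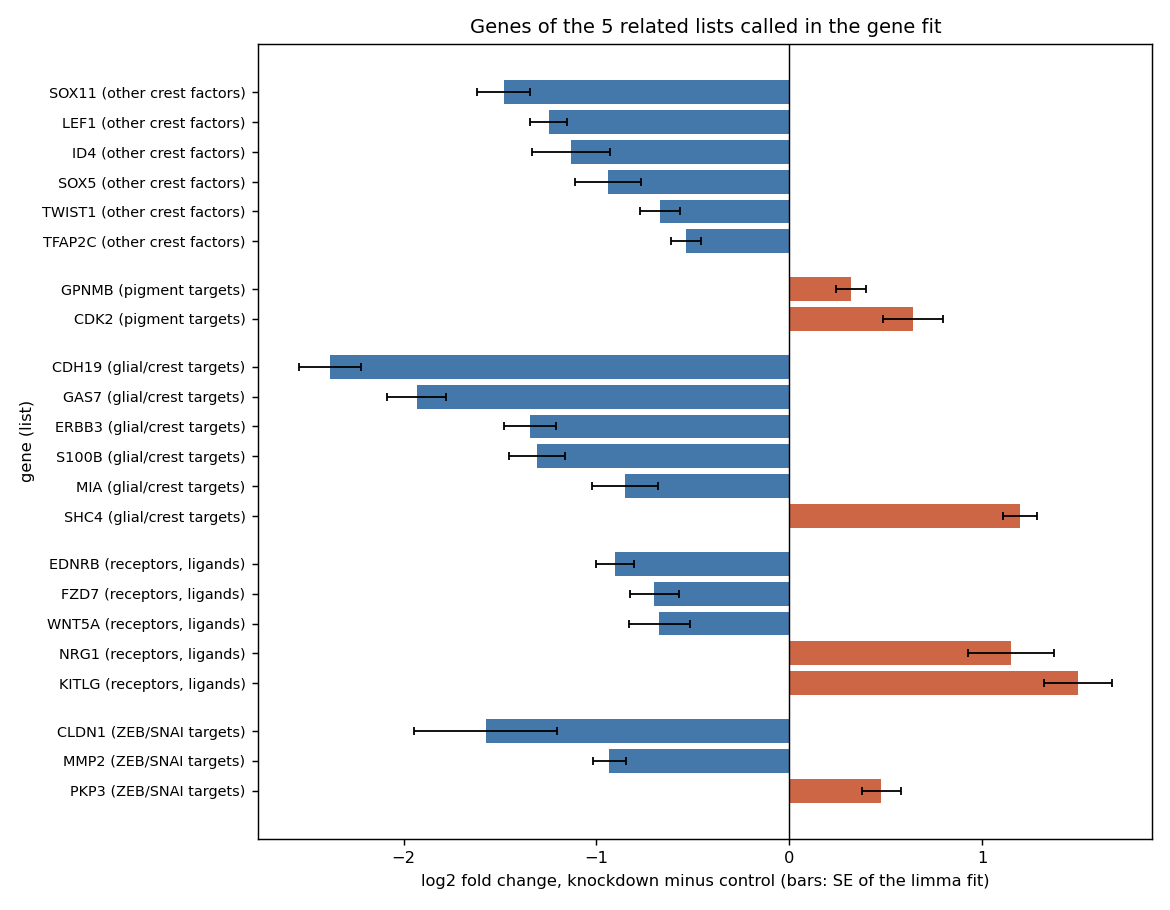
Log2 fold change (knockdown minus control) with the SE of the limma fit for the 22 genes of the 5 related lists that were called, grouped by list. Bars reach from -2.38 at CDH19 to 1.497 at KITLG, and 16 of the 22 point below 0.

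The genes whose values over the 6 arrays were most like those of a member were sought among the 9066 genes at or above the median gene, by Pearson's r on the log2 scale over 6 arrays, as a description. With arrays in 2 groups, a high r mainly shows the same step between groups and the same place of control 2. MITF was closest to CAPN2, NEFL and LIPA (r of 0.999), and SOX9 to ADRM1, TMEM200A and ASPH (0.998 to 0.999). SOX10 was closest to ABHD17C (0.9999), HLA-DQA1 and PPP4R3B. FOXD3 was closest to OCRL, KYAT3 and IAH1 (0.997 to 0.998), TFAP2B to ADGRA2, MAML2 and PRKD1 (0.997 to 0.998), and ZEB1 to MMP2 (0.9996), ZNF22 and MRC2. PAX3 was closest to ZNF692, DHRS11 and CXorf38 (0.987 to 0.993), TFAP2A to TBC1D14, EEIG1 and SH3GLB2 (0.959 to 0.976) and ZEB2 to GEN1, MSANTD2 and FAM83A-AS1 (0.925 to 0.949). The likeness is one of shape and not of size: NEFL rose by 2.58 and CAPN2 by 0.29 beside the 0.99 of MITF.

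The measured genes next to the members in the RefSeq gene order were set beside them, a choice made after the values were seen. Of 20 such neighbours, 3 were called, 2 higher and 1 lower, beside 7.83% of all genes. MITF lies between FRMD4B (-0.85 ± 0.14 SE), which was lower, and FOXP1 (0.55 ± 0.13), which was higher. EPHA4, a receptor kinase and the nearest measured gene before PAX3, was higher (0.74 ± 0.15). Its mean intensity of 8.52 lay below the median gene. TFAP2D, the AP-2 gene beside TFAP2B, stood at -0.15 ± 0.09 at an intensity of 2.59 and was not called, and no measured neighbour of SOX9, FOXD3, TFAP2B, ZEB1 or SOX10 was called. Unmeasured entries lie between most of these pairs, so the neighbours are the nearest measured genes and mostly not adjacent ones. There were 9 between EPHA4 and PAX3, 9 between MITF and FOXP1 and 2 between FRMD4B and MITF.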

How the data were processed

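RNA of 3 control and 3 knockdown cultures of A375 was measured on Affymetrix expression arrays. The deposited values are linear intensity values; per the submitters' processing notes the authors used RMA (version not given in the sources used here); the values run from 1.55 to 6658. The members and lists were chosen with earlier results of these data known.

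Log2 of the intensity was compared with lmFit and eBayes of limma 3.58.1 in R 4.3.3 over all 49293 probe sets, and over 18132 genes at the probe set with the highest mean, with Benjamini-Hochberg adjustment over all features and a threshold of 0.05. Member values come from the probe set fit, and values of lists and neighbours from the gene fit. The platform annotation gave 44988 probe sets 1 symbol, 1832 several and 2473 none. Named were the 10 members, MAP4K5, up to 2 called rises and 2 called falls of each list, and 3 similar genes per member at or above the median gene. The labels name no batch. The number of arrays limits the precision. The fits were tested on simulated data. Alternatives changed the variance model, scaling, pseudocount (16), low-value filter (25% or 50%), probe set choice, the tested fold and the arrays. The labels do not say whether samples with the same replicate number were paired. Correlations of deviations from group means were -0.10, 0.03 and 0.09 for same numbers and -0.104 to 0.075 for different numbers. With 3 arrays a group these values cannot decide whether cultures were paired. Python 3.11.15 served for the other steps.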

Additional observations from a re-analysis of the deposited data

How the results depend on the processing

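Of the 10 members, SOX9, FOXD3 and TFAP2B kept direction and call under every alternative run, and ZEB1 under all but the test against a log2 change of 0.5. In the fit over all probe sets the calls of SOX10 and MITF were lost under 7 alternatives each: that test, the pseudocount of 16 and 5 of the 6 fits that left out 1 array. In the fit over genes SOX10 was lost under 7 and MITF under 4, being kept with the pseudocount and without control 1 or 3. PAX3 was called without control replicate 2 in both fits and with array weights in the fit over genes. The count of called member probe sets, 15, was 6 with a pseudocount of 16, 8 without sets ending in _x_at or _s_at (22 then remained), 4 tested against a log2 change of 0.5, and 8 to 17 in the fits without 1 array. For member genes, 6, the count was 3 in the test against 0.5 and 4 to 7 without 1 array. For the related lists, 22, it was 34 with array weights (control 2 had the lowest weight, 0.46), 6 in the test against 0.5 and 10 to 35 without 1 array. The sign reversed, uncalled before and after, for TFAP2A (-0.24 without _x_at and _s_at sets, -0.067 when its probe sets were averaged) and for ZEB2 without knockdown replicate 1 (0.016, in a range of -0.077 to 0.016 over the fits without 1 array), and ERBB3, called at -1.34, stood uncalled at 0.10 without _x_at and _s_at sets. The cause was not tested. Over all genes 1420 were called, 3732 without control 2, 324 to 565 without 1 other array, 3103 with array weights and 70 in the test against 0.5. With the replicate number as a block, 15 member probe sets, 6 member genes and 23 list genes were called, and the block ended the call of GPNMB (0.32) alone among the called members and list genes. MAP4K5 was called throughout (-2.01 to -1.39). Dim probe sets, such as that of SNAI2, limit what can be seen.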
